A study of Danio rerio with 48 samples.

Results

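The comparison covers 15 of the 48 sequenced zebrafish (Danio rerio) embryos: the noc2l +/+ animals whose titles give an age of 24 hours post fertilisation (hpf, 6 embryos) or 48 hpf (9 embryos). All tested genes were compared between these ages. Each library came from 1 whole embryo of the RIKEN WT strain, homozygous for the wild-type noc2l sequence, and the animals belonged to 1 family of the agu79 line, raised under 14 h of light and 10 h of darkness in water at 28 °C, per the labels. The noc2l -/- embryos of that family (9 at 24 hpf, 7 at 48 hpf) and the 8 wild types at 36 hpf are used only where named. The ages lie a full day apart, so the hour of the light cycle should match if embryos were staged alike, but the labels do not state the clock time of collection. With 1 family, spread between embryos is spread within that family.

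During the day compared, a zebrafish embryo passes from an animal that has just finished forming somites, with a beating heart and first muscle twitches, to one that hatches, swims in bursts, circulates red cells and carries a pigmented eye with a lens. Cells of the tailbud and the neural tube leave the cell cycle and differentiate, and maternal yolk is transferred through the yolk syncytial layer. The circadian clock runs in most zebrafish tissues. Transcription factors of the Clock and Bmal families drive the per, cry and nr1d genes, whose products repress them, and light induces some of these genes directly.

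Total counts ran from 797752 to 5241516 at 24 hpf and from 1954872 to 10141350 at 48 hpf. The 24 hpf embryo 4 and the 48 hpf embryo 9 each held under 1/3 of the median total of the series. On the first principal component, which held 28.7% of the variance and separated the ages, the 24 hpf embryos 4 and 1 read -110.0 and -72.9, against -53.8 to -47.6 for the other 24 hpf embryos, and the 48 hpf embryos read from 24.4 (embryo 9) to 49.5. All 24 hpf wild types stood in column 1 of the library plate and the 48 hpf wild types in columns 5 and 6, so plate column and age cannot be told apart. Every RNA was entered at 2 ng/µl, so levels are relative to the RNA of that embryo.

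Of 16431 genes tested, 4523 (27.5%) differed between the ages at an edgeR quasi-likelihood adjusted p under 0.05. Of these, 2297 (14.0%) were higher and 2226 (13.5%) lower at 48 hpf, and the median log2 fold change of all tested genes was 0.00. Counts of list members called, in the paragraphs that follow, are to be read beside these shares. With so many genes called, a stricter rule was read beside it: edgeR's test against a 2-fold change passed 613 genes (3.73%), 488 higher (2.97%) and 125 lower (0.761%). Levels are given as CPM, counts scaled to the same library total after each total was multiplied by edgeR's TMM factor. Shares of counts use the plain library totals. CPM of the 24 and 48 hpf embryos did not overlap for 815 genes higher (4.96%) and 532 lower (3.24%) at 48 hpf. Without the 24 hpf embryos 1 and 4, 3970 genes were called. The split of calls depended on the scaling: 2402 were higher and 2094 lower with RLE size factors, and 2084 higher and 2436 lower with library totals only.

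**Figure D1:**
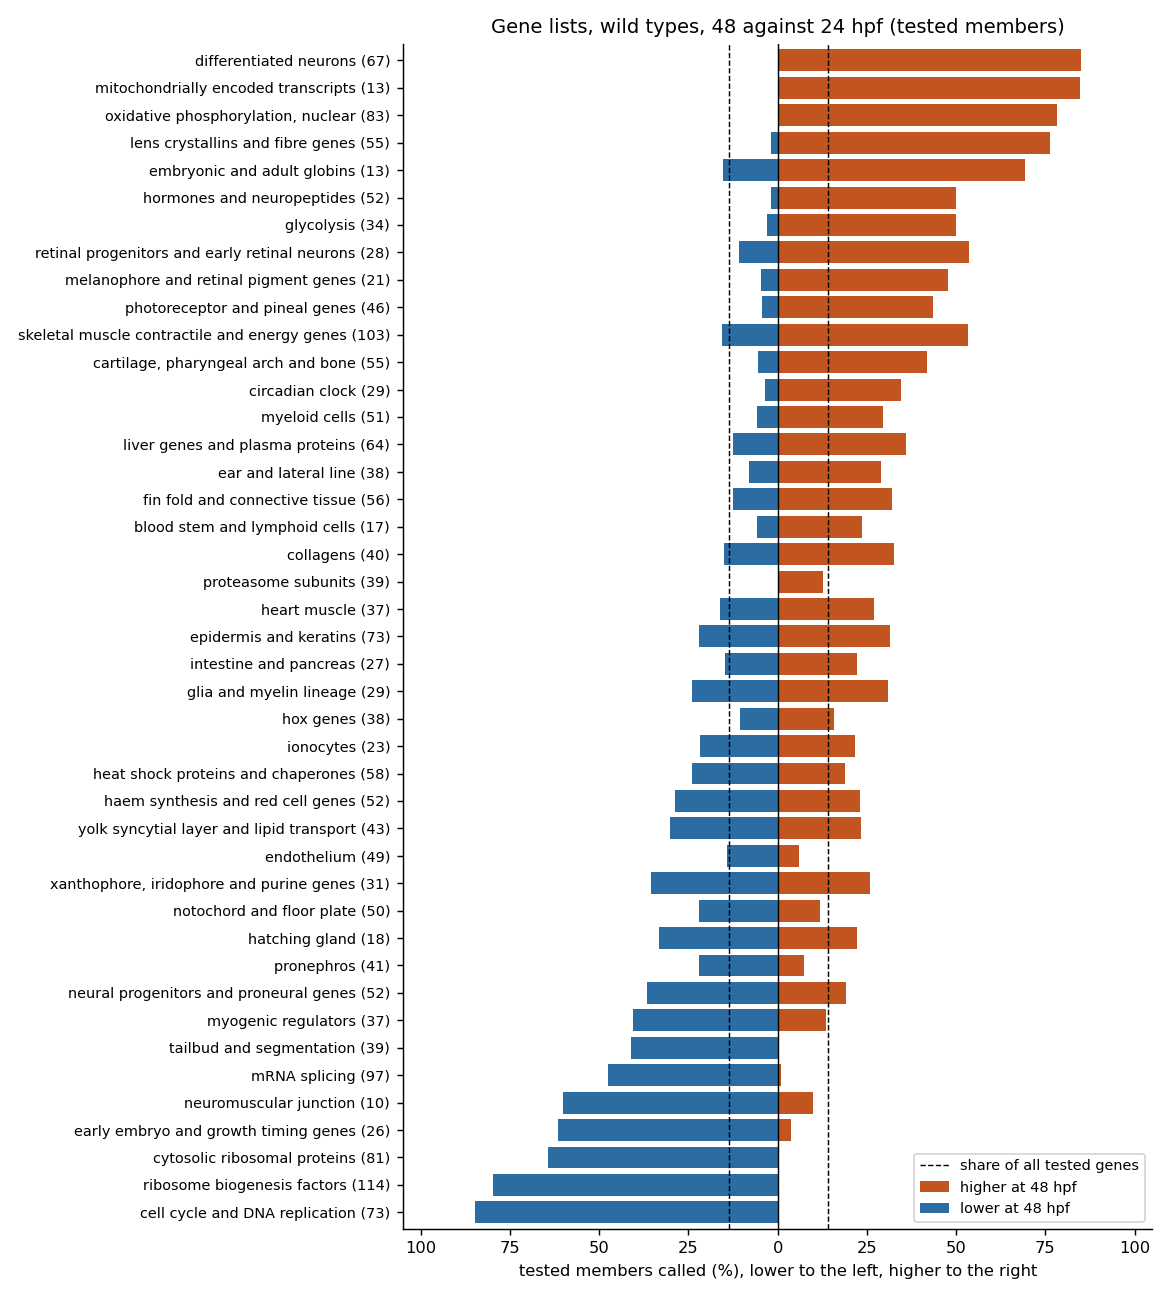
Share of the tested members of each of 43 gene lists called higher (right) or lower (left) at 48 hpf than at 24 hpf in wild types, in percent, with the number tested after each name. Dashed lines mark all tested genes, 14.0% higher and 13.5% lower. Differentiated neurons, mitochondrial transcripts, nuclear oxidative phosphorylation genes and lens genes lie farthest to the right, and cell cycle genes and ribosome biogenesis factors farthest to the left.

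Lens genes rose steeply. Of 55 tested genes for crystallins, the water-soluble proteins that fill lens fibre cells, and other fibre genes, 42 were higher at 48 hpf and 40 passed the 2-fold test, against 2.97% of all genes. The median log2 fold change of the list was 3.70. In whole embryos, more cells of a type and more RNA per cell cannot be told apart. In crygm2d2, a gamma M crystallin gene, the 24 hpf embryos read 4.195, 3.03, 8.66, 5.45, 7.25 and 6.56 CPM, and the 48 hpf embryos ran from 451.3 to 869.7 CPM with a median of 629.8. The lowest 48 hpf embryo, embryo 9, lay far above every 24 hpf embryo. The log2 fold change was 6.80 ± 0.54 (SE), with an edgeR adjusted p of 7.99e-14.

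The gamma M crystallins, a family expanded in fish, rose in every tested member. All 24 passed the 2-fold test, with log2 fold changes of 3.65 to 7.70. In 23 of them the ages did not overlap, beside 4.96% of all tested genes higher at 48 hpf without overlap. Their summed level went from 249 CPM at 24 hpf through 1760 at 36 hpf to 11400 at 48 hpf. In the RefSeq table for GRCz12tu, another assembly than the GRCz11 named in the submitters' notes, 21 crygm2d genes form 1 uninterrupted run of neighbours, and 20 of them were tested here. Counts may be divided between members of such a family, so single values are uncertain. Their sequences were not compared here. The alpha crystallin gene cryaa, which encodes a small heat shock protein of the lens, read 0 to 2.51 CPM at 24 hpf and 6.74 to 23.3 CPM at 48 hpf, a log2 fold change of 3.21 ± 0.45 (edgeR adjusted p = 1.85e-08). Among the beta and gamma N crystallins, cryba4 (3.70), crygn2 (3.68) and cryba1b (1.94) rose, and the last went from 20.1 to 84.6 CPM to 192 to 305 CPM. In each of these genes the ages did not overlap, and the 24 hpf embryo 1 was the lowest reading of cryba1b. Of the fibre genes, the lens membrane protein genes lim2.3 (2.72) and lim2.4 (2.22) and the galectin-related grifin (3.50) rose. The lens transcription factor gene foxe3 fell by 2.11 on the log2 scale from a mean of 2.497 CPM, and lost its call in 2 of the alternatives.

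**Figure D2:**
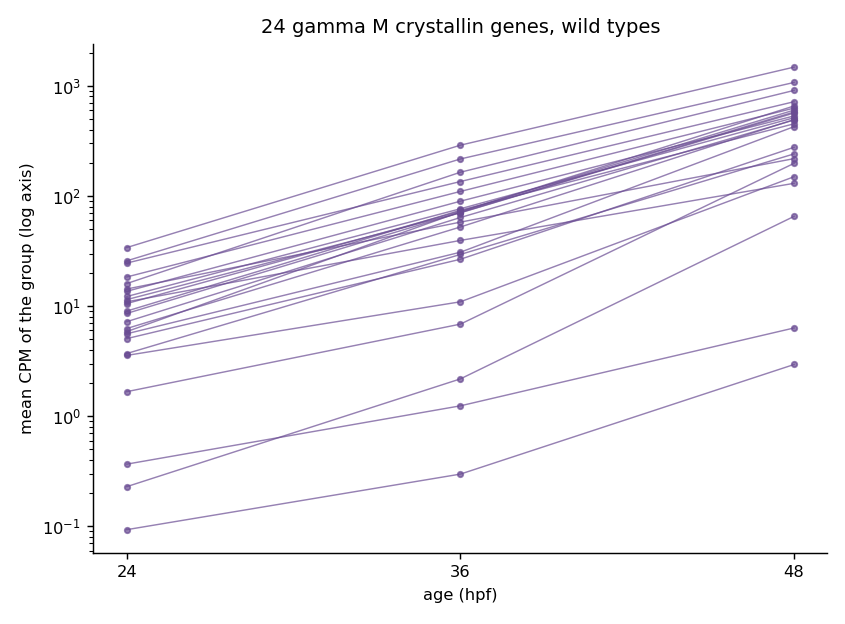
Mean CPM (log axis) of each of 24 gamma M crystallin genes in wild types at 24, 36 and 48 hpf (n = 6, 8 and 9 embryos), 1 line a gene. Every line rises over both steps, and the summed means are 249, 1760 and 11400 CPM.

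Genes of the retina rose beside the lens. Of 28 tested genes of retinal progenitors and early retinal neurons, 15 (53.6%) were higher and 3 (10.7%) lower. For this list and the others of this paragraph, the shares over all tested genes were 14.0% higher and 13.5% lower. The ganglion cell factor gene pou4f2 (log2 fold change 2.92), the bipolar cell factor gene vsx1 (2.90), barhl2 (2.07) and the ganglion cell specifier atoh7 (2.21) rose, whereas the progenitor gene rx1 fell by 1.68. Levels of atoh7 averaged 5.19, 30.1 and 17.03 CPM at 24, 36 and 48 hpf, so that its 36 hpf mean was the highest of the 3 ages. In pou4f2 the 24 hpf embryos ran from 0 to 5.66 CPM and the 48 hpf embryos from 18.02 to 38.2 CPM, without overlap. Of 46 tested photoreceptor and pineal genes 20 were higher and 2 lower: the photoreceptor factor genes otx5 (4.11), nr2e3 (2.98) and crx (1.93), the arrestin gene sagb (4.83) and the transducin subunit gene gnb3a (3.18) rose. Rhodopsin, rho, averaged 0.19 CPM at 24 hpf and 2.24 CPM at 48 hpf, was called (log2 fold change 3.38 ± 1.03, edgeR adjusted p = 0.0095) and read 0 in at least 1 embryo of each age. In the pigment list 10 of 21 tested melanophore and retinal pigment genes were higher and 1 was lower, with tyrp1b, a melanin synthesis enzyme gene, at 18.5 to 93.2 CPM and then 125 to 188 CPM (1.45 ± 0.27, edgeR adjusted p = 4.47e-05).

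Most muscle genes called were higher at 48 hpf. Of 103 tested skeletal muscle contractile and energy genes 55 were higher and 16 lower, with 26 higher and 2 lower past the 2-fold test and a median of 0.70. Their share of all counts lay between 2.56% and 4.21% at 24 hpf, between 4.26% and 6.36% at 36 hpf and between 7.68% and 9.09% at 48 hpf. Genes of fast fibres were among the rises. The parvalbumin gene pvalb1, which encodes a calcium buffer, went from 334.8 to 790.4 CPM to 4920 to 7391 CPM (log2 fold change 3.40 ± 0.21, edgeR adjusted p = 5.03e-17), pvalb2 rose by 2.80, the fast myosin heavy chain gene myhz2 by 1.96 and the muscle creatine kinase gene ckma by 1.92. The slow myosin gene smyhc1 read -0.56 and lost its call under 2 alternatives, smyhc3 fell by 0.64 and the slow myosin light chain gene myl10 by 0.29. The cardiac-type actin gene actc1a fell by 0.73, and its paralogue actc1b rose by 0.97.

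The AMP deaminase gene ampd1, which acts in the purine nucleotide cycle of working muscle, stood among 11 crygm2d genes in the 12 largest rises. These were taken from genes past the 2-fold test, with a mean of at least 10 CPM at the higher age and ages that did not overlap. Symbols in the form of a clone name were left out. Among those, si:ch211-255g12.6 met the other thresholds and rose by 7.36 ± 0.77. At 24 hpf ampd1 read 0.84, 0.57, 1.397, 0, 0.54 and 0.23 CPM, and at 36 hpf 0.21 to 2.56 CPM. The 48 hpf embryos ran up to 76.6 CPM with a median of 42.5, all above every younger embryo. The log2 fold change was 6.097 ± 0.55, with an edgeR adjusted p of 8.36e-13. The change was 5.12 ± 0.41 from 36 to 48 hpf. From 24 to 36 hpf it was 0.97 ± 0.68, which did not pass (edgeR adjusted p = 0.462), at levels of few counts.

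Related troponin genes went in opposite directions. Troponin I, the inhibitory subunit of the thin filament, is encoded at fast muscle loci that include tnni2b.1 and tnni2b.2, which are neighbours in GRCz12tu. The 24 hpf embryos held 926.7 to 1254 CPM of tnni2b.1, the 36 hpf embryos 407.9 to 750.9 CPM and the 48 hpf embryos 124 to 239 CPM, so that no embryo of 48 hpf overlapped with 24 hpf. Levels of tnni2b.2 went the other way, from 1.34 to 13.1 CPM through 19.3 to 38.6 CPM to 62.1 to 161 CPM, also without overlap. The log2 fold changes were -2.64 ± 0.17 (edgeR adjusted p = 6.64e-17) and 4.16 ± 0.31 (edgeR adjusted p = 7.23e-15), and tnni2a.4 rose by 2.22. Among genes for troponin T, the subunit that binds tropomyosin, tnnt2c fell from 567 to 864 CPM to 71.1 to 139 CPM, and tnnt3b rose from 129 to 348 CPM to 1629 to 2361 CPM. Their log2 fold changes were -2.65 ± 0.18 and 3.02 ± 0.25 (edgeR adjusted p = 5.95e-16 and 2.07e-13), again with no embryo of the older age inside the younger range. Where the counting divides reads between such neighbours, single values are uncertain.

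Regulators of muscle formation were more often lower than higher. Of 37 tested myogenic regulators 15 were lower and 5 higher, and 2 were higher without the 24 hpf embryo 1. The fusion gene mymk fell by 1.16, and the myosin chaperone and methyltransferase genes hsp90aa1.1 (-1.68), unc45b (-1.58) and smyd1b (-1.56) fell past 2-fold, whereas the paralogue smyd1a rose (1.36). Levels of hsp90aa1.1 were 254 to 438 CPM at 24 hpf and 88.0 to 141 CPM at 48 hpf. The small heat shock protein gene hspb1 fell further, from 286.9 to 418.9 CPM to 52.2 to 77.3 CPM (-2.46 ± 0.18, edgeR adjusted p = 1.07e-14), with no overlap. At the neuromuscular junction 6 of 10 tested genes were lower and 1 higher: the embryonic acetylcholine receptor subunit gene chrng fell by 2.097, and the acetylcholinesterase gene ache rose by 0.97.

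In the globin list, the chains of haemoglobin and their relatives, 9 of 13 tested genes were higher and 2 lower at 48 hpf. The share of globin counts lay between 0.575% and 1.3% at 24 hpf, between 2.59% and 3.15% at 36 hpf and between 2.17% and 3.55% at 48 hpf, so that the 36 and 48 hpf embryos overlapped. In hbbe1.2, an embryonic beta globin gene, the 24 hpf embryos read 409, 805, 785, 994, 948 and 936 CPM, embryo 1 being the lowest, and the 48 hpf embryos 1989.9 to 4436 CPM. The log2 fold change was 2.00 ± 0.20, with an edgeR adjusted p of 6.84e-11, and hbbe1.1, hbbe1.3, hbae1.3 and hbae3 rose by 1.598, 1.98, 1.55 and 1.81.

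A further beta globin gene, hbbe3, went the other way. Its 24 hpf embryos read 1119.7, 1857, 1529.6, 1425, 1790.2 and 1914 CPM and its 36 hpf embryos 2205 to 3138 CPM, whereas the 48 hpf embryos read 447.8 to 940.1 CPM, below every younger embryo. The log2 fold change was -1.304 ± 0.12, with an edgeR adjusted p of 5.57e-14. In GRCz12tu, hbbe3 lies in a run of 4 neighbours with hbae4, hbbe2 and hbae5, apart from the run of 7 that holds the hbbe1 and hbae1 genes. Its neighbour hbbe2 rose by 1.88, from 38.2 to 69.2 CPM to 151 to 308 CPM, and hbae5 did not pass (-0.36, 6.54 and 5.47 CPM on average, edgeR adjusted p = 0.459). Of the 52 tested genes of haem synthesis and the red cell, 15 (28.8%) were lower and 12 (23.1%) higher, beside 13.5% and 14.0% of all tested genes. The haem enzyme gene urod (-2.08) and the iron transporter gene slc11a2 (-1.53) fell. The carbonic anhydrase gene cahz (1.32) and the erythrocyte ankyrin gene ank1a (1.52) rose. The red cell master regulator gene gata1a fell by 1.18.

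**Figure D3:**
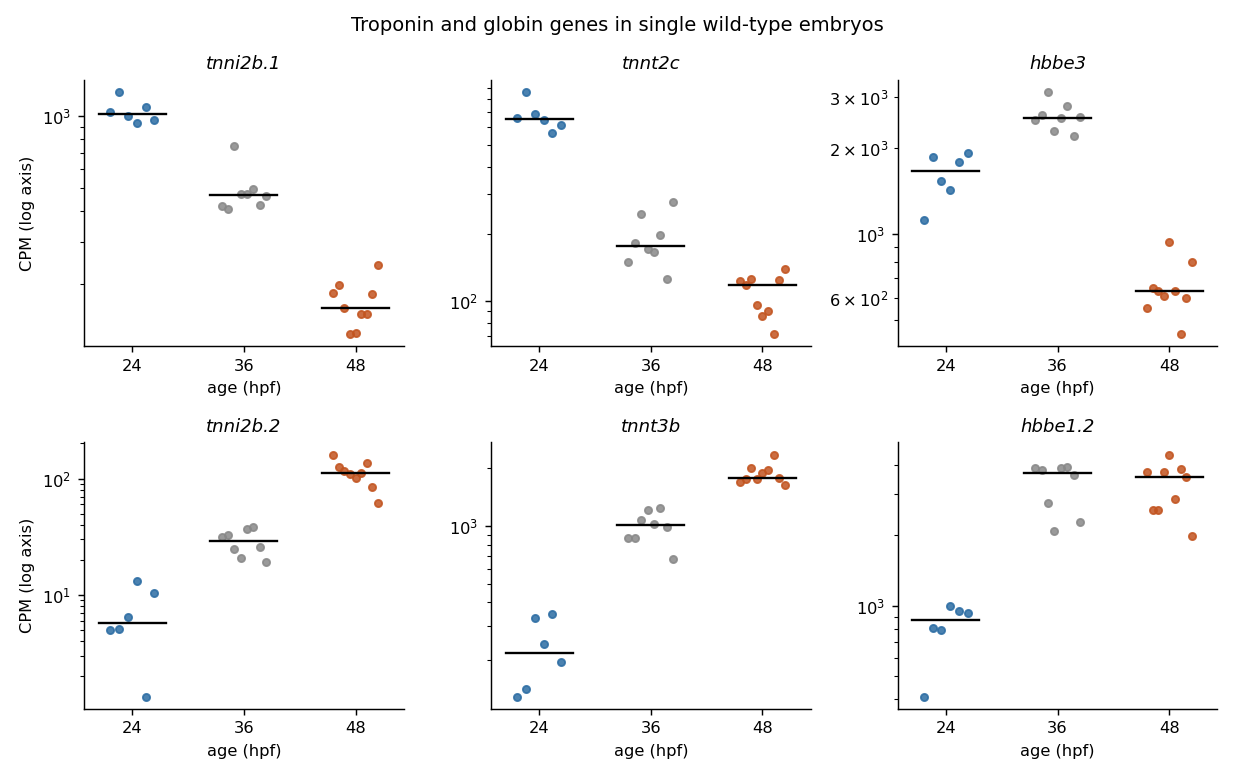
CPM (log axes) of tnni2b.1, tnni2b.2, tnnt2c, tnnt3b, hbbe3 and hbbe1.2 in single wild-type embryos at 24, 36 and 48 hpf, with black bars at the medians. In the troponin pairs 1 gene falls over both steps while its partner rises, and hbbe3 peaks at 36 hpf and is lowest at 48 hpf.

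Clock genes were examined because ages a full day apart may share an hour of the day. Of 46 entries written into the clock list 41 were in the table and 29 had enough counts to test. Of these, 10 (34.5%) were higher at 48 than at 24 hpf, 1 (3.45%) was lower and 18 did not pass. Of all tested genes, 14.0% were higher and 13.5% lower. Of the 6 genes that dipped at 36 hpf, 4 did not pass between 24 and 48 hpf, per1b was lower and ciarta higher. The repressor gene per2 read 2.24 to 8.86 CPM (median 5.28) at 24 hpf, 0.68 to 3.48 CPM (median 1.64) at 36 hpf and 2.79 to 6.38 CPM (median 5.50) at 48 hpf. From 24 to 48 hpf it changed by -0.10 ± 0.38 on the log2 scale, which did not pass, and at 36 hpf it lay 1.43 below the mean of the other ages (edgeR adjusted p = 0.006). In tefa, a PAR bZIP factor gene of the clock output, the 36 hpf embryos (16.4 to 25.6 CPM) lay below all embryos of 24 hpf (38.1 to 64.0 CPM) and 48 hpf (30.5 to 61.8 CPM). Its departure at 36 hpf was -1.13 (edgeR adjusted p = 3.77e-08), and its change from 24 to 48 hpf -0.23 ± 0.16, which did not pass.

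The nuclear receptor gene nr1d2b, a repressor of bmal genes, and the period gene per3 had departures of -1.39 and -0.74 at 36 hpf (edgeR adjusted p = 1.28e-05 and 0.00373) and day-to-day changes of 0.22 ± 0.25 and -0.46 ± 0.20 that did not pass. A p that misses the threshold does not show equal levels at both ages. In nr1d2b the 36 hpf embryos (2.13 to 13.8 CPM) overlapped with 24 hpf (9.78 to 28.35 CPM) and with 48 hpf (8.59 to 25.76 CPM). In all, 6 of the 29 tested clock genes departed at 36 hpf, all downward, beside 0.755% of all genes downward, 2.65% upward and 3.40% in either direction. The same 6 passed in each of the 10 alternatives run for them. When libraries were scaled by totals alone, all genes together shifted, and the genes departing at 36 hpf numbered 183 upward and 259 downward in place of 435 and 124.

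Other clock genes differed between 24 and 48 hpf, and of those named here only per1b and ciarta also dipped at 36 hpf. The period gene per1b read 31.5, 20.8, 12.85, 11.99, 16.38 and 18.6 CPM at 24 hpf, 1.49 to 5.88 CPM at 36 hpf and 5.81 to 15.99 CPM at 48 hpf. It was lower at 48 hpf by 0.90 ± 0.27 on the log2 scale (edgeR adjusted p = 0.00701), the ranges overlapped, and without the 24 hpf embryo 1 the change was -0.70 and not called (edgeR adjusted p = 0.0566). The clock-associated repressor gene ciarta dipped by 0.84 at 36 hpf and was 0.55 higher at 48 than at 24 hpf. The orphan receptor gene roraa, an activator of bmal genes, read 1.09 to 7.97 CPM at 24 hpf, 2.55 to 10.24 CPM at 36 hpf and 15.5 to 28.6 CPM at 48 hpf, with no overlap between 24 and 48 hpf (1.91 ± 0.33, edgeR adjusted p = 2.72e-06). Together with nfil3-5 (1.50), a bZIP repressor gene, it passed the 2-fold test. Smaller rises were found in rorab (1.35), csnk1e (1.17), rorcb (0.89), arntl1a (0.73), nfil3 (0.72) and cry3a (0.54). Of these, rorcb lost its call under 3 alternatives. The gene nr1d2a rose by 1.95 from a mean of 2.11 CPM. The 24, 36 and 48 hpf comparisons share embryos, so the dip and the return are not independent of each other.

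**Figure D4:**
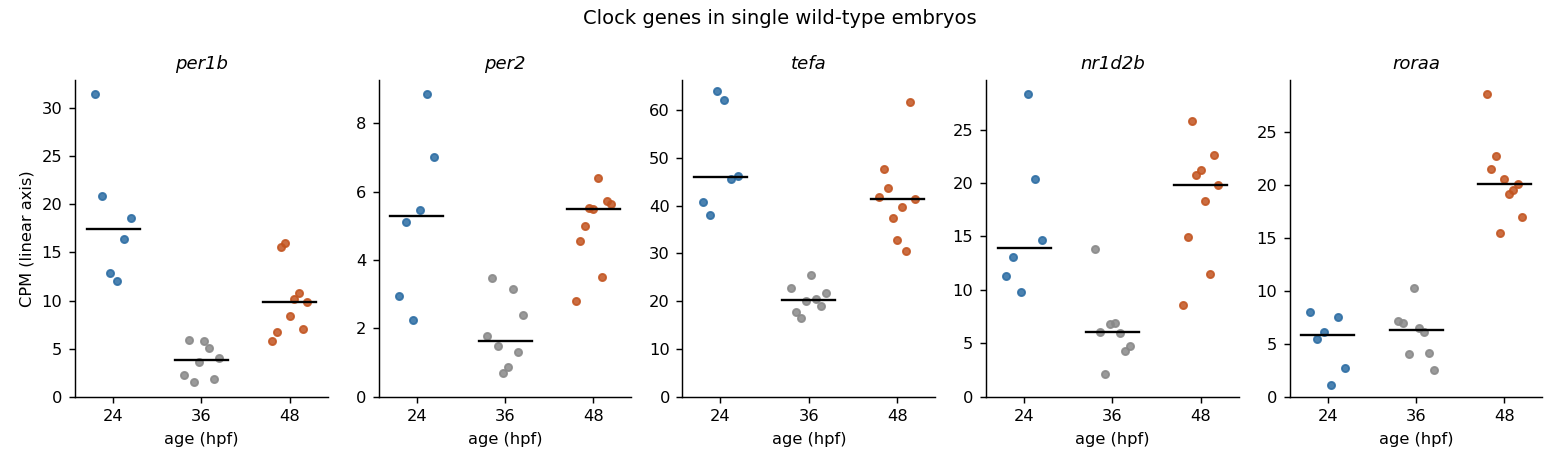
CPM (linear axes from 0) of per1b, per2, tefa, nr1d2b and roraa in single wild-type embryos at 24, 36 and 48 hpf, with black bars at the medians. The medians of the first 4 genes are low at 36 hpf and higher at both ends of the day, while roraa is high at 48 hpf alone. In per1b, per2 and nr1d2b, but not in tefa, the 36 hpf range overlaps with that of another age.

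Genes of differentiated neurons were higher at 48 hpf. Of 67 tested genes of differentiated neurons 57 were higher at 48 hpf and none lower, with 24 past the 2-fold test and a median of 1.36. The share of their counts was 0.134% to 0.190% at 24 hpf and 0.319% to 0.393% at 48 hpf, without overlap. The microtubule regulator gene stmn2a, active in growing axons, read 6.54 to 24.7 CPM at 24 hpf and 70.0 to 87.8 CPM at 48 hpf (log2 fold change 2.39 ± 0.21, edgeR adjusted p = 9.47e-14). The synaptic vesicle fusion gene snap25b (3.04), the vesicle calcium sensor gene syt1a (2.27), the glycine transporter gene slc6a5 (2.14), the acetylcholine synthesis gene chata (2.296) and the growth cone gene gap43 (1.95) rose too. The early neuronal gene elavl3 rose little (0.58 ± 0.17, edgeR adjusted p = 0.00505), with 32.97 to 60.8 CPM and then 42.02 to 101.2 CPM, which overlap. Neural progenitor and proneural genes were divided, 19 of 52 lower and 10 higher. The genes sox19a (-1.18), sox3 (-1.11), her3 (-2.41) and her2 (-1.53) fell, whereas neurod1 (1.93) and fabp7a (2.02), a fatty acid binding gene of radial glia, rose.

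Hormones and neuropeptides rose in 26 of 52 tested genes, and cart3 alone fell (-1.37). Insulin, ins, read 12.2, 12.9, 12.3, 9.81, 17.7 and 9.05 CPM at 24 hpf and 31.5 to 48.1 CPM at 48 hpf, a log2 fold change of 1.69 ± 0.28 (edgeR adjusted p = 4.50e-06) without overlap. The 36 hpf embryos, at 4.47 to 26.1 CPM, overlapped with 24 hpf and lay below 48 hpf. The glucagon gene gcga read 0 to 0.57 CPM at 24 hpf and 2.82 to 10.8 CPM at 48 hpf. The hypothalamic peptide gene npvf had risen by 36 hpf (2.87 to 11.4 CPM, after 0 to 1.09 CPM at 24 hpf) and stood at 4.03 to 12.4 CPM at 48 hpf. The gut peptide gene pyya (2.51) and the neuropeptide gene adcyap1b (2.16) rose, and oxytocin, oxt, with no normalised count above 0 at 24 hpf, averaged 1.72 CPM at 48 hpf.

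Hatching enzyme genes were lower at 48 hpf. The hatching gland secretes proteases that dissolve the egg envelope. Of 18 tested genes of its list 6 (33.3%) were lower and 4 (22.2%) higher, with a median of -0.08. Of all tested genes 13.5% were lower and 14.0% higher. Under the alternatives 3 to 7 members were lower and 2 to 4 higher. Levels of he1.2, a hatching enzyme gene, were 1374 to 1710 CPM at 24 hpf, 1557 to 2300 CPM at 36 hpf and 310.4 to 681.6 CPM at 48 hpf. The fall from 24 to 48 hpf was -1.67 ± 0.14 (edgeR adjusted p = 8.39e-15), and he1.1 fell by 1.19 and the cathepsin gene ctslb by 1.99. In all these genes the 48 hpf embryos lay below every 24 hpf embryo. The whole list held between 0.836% and 1.16% of counts at 24 hpf, between 0.863% and 1.14% at 36 hpf and between 0.230% and 0.443% at 48 hpf.

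**Figure D5:**
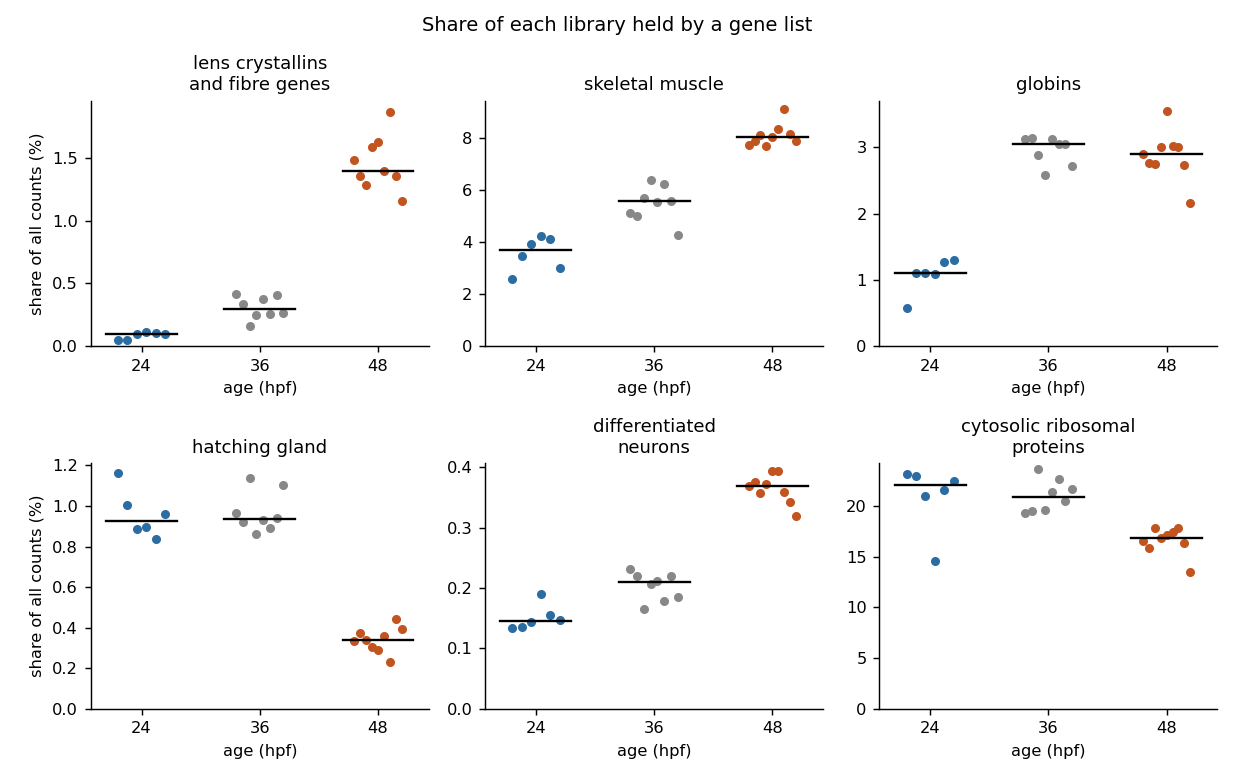
Share of all counts in each wild-type library (percent, axes from 0) held by 6 gene lists at 24, 36 and 48 hpf, 1 point an embryo, with black bars at the medians. On these linear axes lens genes rise mainly after 36 hpf, globins before it, and hatching gland genes fall after it. The median log2 fold change of the lens list was 1.92 in each step. The 24 hpf embryo 4 (14.5%) and 48 hpf embryo 9 (13.5%) lie low for ribosomal proteins.

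Keratins, the intermediate filaments of the skin, went both ways. Of 73 tested epidermal genes 23 (31.5%) were higher and 16 (21.9%) lower, beside 14.0% and 13.5% of all tested genes. Without the 24 hpf embryo 1, 21 were higher and 12 lower. The abundant krt4 did not pass (5676 to 9108 CPM and 6101 to 8362 CPM, log2 fold change -0.07 ± 0.10). Its relatives krt92 (-2.54) and krt99 (-2.52) were among the 12 largest falls under the rule used for ampd1, and krt17 fell by 1.76 with overlapping ranges. The 24 hpf embryos read 764, 494, 382, 135, 285 and 283 CPM of krt92, embryo 1 being the highest and embryo 4 the lowest, and the 48 hpf embryos 47.1 to 81.4 CPM. By contrast krt91 went from 72.1 to 166 CPM to 389.7 to 1028 CPM (2.62 ± 0.26, edgeR adjusted p = 1.10e-10), krtt1c19e, a keratin gene of the basal epidermis, from 96.4 to 239.8 CPM to 1101 to 1624 CPM (2.95), and krt15 rose by 2.37.

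Fin fold and bone genes included steep rises. The actinodin genes and1, and2 and and3, which encode the fibres of the fin fold, rose by 1.79 ± 0.11, 2.58 ± 0.12 and 3.16 ± 0.16, and in and2 the 24 hpf embryos (51.1 to 74.1 CPM) lay far below the 48 hpf embryos (310.6 to 437.3 CPM). Of 55 tested genes of cartilage, pharyngeal arches and bone 23 (41.8%) were higher and 3 (5.45%) lower, beside 14.0% and 13.5% of all tested genes. The collagen gene col10a1a of early bone rose from 0.38 to 4.03 CPM to 27.3 to 89.7 CPM (4.88 ± 0.44, edgeR adjusted p = 5.71e-13), and the osteoblast gene ifitm5 from 0 to 1.14 CPM to 11.7 to 24.4 CPM (5.31 ± 0.60, edgeR adjusted p = 4.61e-11). The neural crest gene crestin fell by 1.27. The endothelin receptor gene ednrab, also active in the neural crest, was the largest fall under the same rule that picked the largest rises: it read 56.2, 36.6, 17.6, 34.9, 25.2 and 14.9 CPM at 24 hpf and 0.46 to 2.67 CPM at 48 hpf (-4.40 ± 0.41, edgeR adjusted p = 2.94e-12), with 4.15 to 15.8 CPM at 36 hpf.

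Genes of proliferation fell together. Of 73 tested genes of the cell cycle and DNA replication 62 were lower at 48 hpf and none higher, beside 13.5% of all genes lower, and the median log2 fold change was -0.73. Few of these falls were large, 3 passing the 2-fold test. The replicative helicase gene mcm4 went from 124 to 153 CPM to 45.4 to 63.2 CPM (-1.35 ± 0.11, edgeR adjusted p = 3.26e-16) and its partner mcm7 fell by 1.66. The sliding clamp gene pcna read 418, 636, 653, 591, 726.5 and 769.7 CPM at 24 hpf, embryo 1 being the lowest, and 281 to 366 CPM at 48 hpf (-0.90 ± 0.10, edgeR adjusted p = 2.85e-11). The list's median change was -0.08 from 24 to 36 hpf and -0.67 from 36 to 48 hpf.

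Ribosome biogenesis factors also fell. Of 114 tested members 91 were lower and none higher, with a median of -0.77. The medians of the steps were -0.56 from 24 to 36 hpf and -0.19 from 36 to 48 hpf, which share the 36 hpf embryos. The rRNA methyltransferase gene fbl (-1.03), the nucleolar chaperone gene npm1a (-1.07), the pseudouridine synthase gene dkc1 (-1.09) and the nucleolin gene ncl (-0.99) fell. Levels of npm1a were 241 to 530 CPM at 24 hpf and 164 to 197 CPM at 48 hpf, without overlap. The gene noc2l itself, a ribosome biogenesis factor intact in these animals, read 6.54 to 31.9 CPM and then 5.71 to 22.7 CPM and did not pass (-0.61 ± 0.32, edgeR adjusted p = 0.161).

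The proteins of the ribosome were lower too. Of 81 tested cytosolic ribosomal protein genes 52 were lower and none higher, with a median of -0.31, against 0.13 from 24 to 36 hpf and -0.44 from 36 to 48 hpf. Their share of counts was 14.5% to 23.1% at 24 hpf and 13.5% to 17.8% at 48 hpf, the lowest reading of each age coming from its shallowest library, 24 hpf embryo 4 and 48 hpf embryo 9. The number of members lower was 73 without the libraries under 1/3 of the median total and 75 without the 24 hpf embryos 1 and 4. It was 32 without the 24 hpf embryo 2 and 38 without embryo 1. The large subunit gene rpl10a fell by 0.46 and rpl29 by 0.51, both with ranges that overlap. Of 97 tested splicing genes 46 were lower and 1 higher, with snrpb, a core spliceosome gene, falling by 1.08.

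Early embryonic genes were lower as well. Of 26 tested genes of the early embryo and of growth timing 16 were lower and 1 higher: the let-7 inhibitor gene lin28a went from 34.9 to 78.4 CPM to 10.48 to 26.05 CPM (-1.82 ± 0.18, edgeR adjusted p = 1.26e-12), and the RNA-binding protein gene igf2bp1 (-1.11), the peptide hormone gene apela (-2.44) and the Nodal co-receptor gene tdgf1 (-3.20) fell. In the tailbud and segmentation list 16 of 39 tested genes were lower and none higher. There the posterior homeobox gene cdx4 fell by 3.74 and the T-box genes tbx16 and tbxta by 3.28 and 1.39, from means of 9.64, 6.74 and 15.5 CPM. With only the 15 embryos in the fit, 10 of that list were lower.

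Many energy genes rose. Of 83 tested nuclear genes of oxidative phosphorylation 65 were higher and none lower, with a median of 0.43 and no member past the 2-fold test. Without the 24 hpf embryos 1 and 4, 32 were higher. Of 13 tested mitochondrially encoded transcripts 11 were higher, with a median of 0.55: mt-atp6 went from 2039.7 to 4574 CPM to 5082 to 7356 CPM (0.87 ± 0.12, edgeR adjusted p = 6.08e-08). Their share of counts was 2.17% to 3.23% at 24 hpf and 3.48% to 4.40% at 48 hpf, without overlap, embryo 1 and embryo 9 being the lowest of their ages. In glycolysis 17 of 34 tested genes were higher and 1 lower, and the steepest were pkmb (2.504) and gapdhs (2.24), isoform genes of pyruvate kinase and of glyceraldehyde phosphate dehydrogenase.

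Yolk and liver genes went both ways. The counts of this paragraph stand beside 14.0% higher and 13.5% lower of all tested genes. Among 43 tested genes of the yolk syncytial layer and lipid transport 13 were lower and 10 higher: afp4 fell by 1.36, from 3583 to 7427 CPM to 1904 to 2746 CPM, and the fatty acid binding gene fabp2 by 1.86, whereas the apolipoprotein gene apoea rose by 1.70 and the retinol binding gene rbp2a by 3.06. Of 64 tested liver and plasma protein genes 23 were higher and 8 lower, and 3 were lower without the 24 hpf embryos 1 and 4 or without embryo 2, and 5 without embryo 1. The clotting gene fgb (1.03) and the retinol carrier gene rbp4 (1.35) rose. Among myeloid genes 15 of 51 tested were higher and 3 lower; the lysozyme gene lyz rose by 1.79, from 20.6 to 56.9 CPM to 73.4 to 152 CPM, and the cathepsin genes ctss2.1 and ctsc fell by 2.87 and 2.15. In the heart list 10 of 37 tested genes were higher and 6 lower, with the natriuretic peptide gene nppa rising by 2.38. The pronephros list had 9 of 41 tested genes lower, among them the cadherin gene cdh17 (-1.42), and 3 higher. In the ear list 11 of 38 were higher and 3 lower, the otolith matrix gene oc90 falling by 2.28 and the otolith gene stm rising by 0.94.

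The remaining 12 lists were mixed or changed in few members. Their counts stand beside 14.0% higher and 13.5% lower of all tested genes. The tested endothelial genes were 3 higher and 7 lower of 49 (4 lower without the 24 hpf embryo 1), with flt4, a lymphatic and venous receptor gene, falling by 1.31. The proteasome list had 5 of 39 higher (12.8%, near the share of all genes) and none lower, and 0 higher without the 24 hpf embryo 1. Of 38 tested hox genes 6 (15.8%) were higher and 4 (10.5%) lower, near the shares of all tested genes. Without the 24 hpf embryo 1 only 1 was lower. Among these genes hoxb1b fell by 0.99 and hoxb5a rose by 1.43. Among 58 tested heat shock and chaperone genes 14 were lower and 11 higher, and the endoplasmic reticulum chaperone genes hspa5 (0.83) and hsp90b1 (1.34) were among those that rose. Of 31 tested genes of xanthophores, iridophores and purine synthesis 11 were lower and 8 higher (5 higher without the 24 hpf embryo 1), the purine synthesis genes paics (-1.01) and gart (-1.96) falling and pnp4a, an iridophore gene, rising by 1.23. Notochord genes were 6 higher and 11 lower of 50, collagens 13 and 6 of 40, fin fold and connective tissue genes 18 and 7 of 56 (4 lower without the 24 hpf embryo 2), glial genes 9 and 7 of 29, gut and pancreas genes 6 and 4 of 27, and ionocyte genes 5 and 5 of 23. Blood stem and lymphoid genes were 4 higher and 1 lower of 17, with runx1, a stem cell factor gene, rising by 1.83.

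The day was also measured in the noc2l -/- siblings, which are separate embryos from the same family. There 4552 genes were called between 24 and 48 hpf (27.7%). Of the 4523 genes called in wild types, 4370 (96.6%) changed with the same sign in the mutants. Of them 3083 (68.2%) were also called there with that sign, which is 67.7% of the mutants' calls. The share with the same sign over all tested genes is not given here. The genes of both genotypes passed 1 filter and shared 1 estimate of spread. A difference in the change itself passed in 10 genes (0.0609%), by edgeR's interaction test, and 1184 genes had an unadjusted p under 0.05; limma voom found 6 and DESeq2 43. The smallest p belonged to hbbe3: in wild types it fell by 1.304, in mutants it read -0.09 ± 0.12, and the difference was 1.21 ± 0.17 (edgeR adjusted p = 8.93e-06). Of the lens and muscle genes above, crygm2d2 rose by 5.27 and ampd1 by 3.96 in mutants. Their interactions, -1.53 ± 0.65 and -2.13 ± 0.84, did not pass, which does not show equal changes. Every crygm2d gene among the 12 largest rises, picked by their wild-type change, had a smaller estimated rise in mutants. In crygm2d11 the interaction was -4.21 and in crygm2d6 -2.39, both at an edgeR adjusted p of 0.0669. From the muscle list, igfn1.3 (-2.59) and tcap (4.37) passed.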

How the data were processed

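Single embryos were sequenced by Lasy-Seq, a 3' mRNA method that pools samples early. The values are expected counts per gene deposited by the authors; fastp 0.21.0, BWA 0.7.17-r1188, Salmon and GRCz11 are named in the submitters' processing notes. A table of other sample metadata was also deposited, and gave groups and plate wells. Of 31658 entries 3197 were 0 in every library, and 2 values that were not whole were rounded. Genes were kept by edgeR's filter (minimum count 10), leaving 16431 with 99.81% of counts. All 48 libraries were fitted together in edgeR 4.0.16 (quasi-likelihood, TMM, Benjamini-Hochberg adjustment, R 4.3.3), with the 2-fold test by glmTreat. The biological coefficient of variation was 31.1%. Alternatives used limma 3.58.1 and DESeq2 1.42.0. The test was tested on simulated data. Intervals and p-values reflect the spread between embryos, and shallow libraries limit low genes.

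Named genes were the 12 largest rises and falls under the thresholds given above, list members of smallest p or marked for description, every tested clock gene, noc2l, the leading interaction genes and the genes of highest mean. Further list members were named after their values were seen: cryba4, lim2.3, lim2.4, grifin, barhl2, otx5, nr2e3, gnb3a, smyhc3, myl10, actc1b, tnni2a.4, hbae1.3, snap25b, slc6a5, chata, her3, pyya, krt17, krt15, mcm7, rpl10a, rpl29, apela, tdgf1 and gart. Members and gene lists were chosen with earlier results of these data known. Some results are not reported here.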

Additional observations from a re-analysis of the deposited data

Results flagged for a closer look

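Among 150 groups checked, 17 had an embryo far from the rest of its group; chance alone gives about 1 in 20. At 24 hpf, 5 of the 9 cases were in embryo 4, the shallowest library. Its shares of counts were 1.82% for cell cycle genes, 14.5% for ribosomal proteins, 0.19% for differentiated neurons and 0.0486% for hormones and neuropeptides. Its npvf level was 1.09 CPM, about what 1 count makes in that library of 797752 counts. The 24 hpf embryo 1 had 409 CPM of hbbe1.2 and 0.576% of counts in globins. The 24 hpf embryo 6 had 0.905 CPM of crygm2d11, and embryo 5 had 0.204% of counts in fin fold and connective tissue genes.

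At 48 hpf, 6 cases were in embryo 9, the shallowest of its age: 1.46% of counts in cell cycle genes, 13.5% in ribosomal proteins, 0.522% in early embryo genes, 1.84% in nuclear oxidative phosphorylation genes, and 3.48% in mitochondrially encoded transcripts, counted by list and by name. The 48 hpf embryo 7 had 76.6 CPM of ampd1 and 9.09% of counts in muscle genes.

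The change from 24 to 48 hpf differed between mutants and wild types in 10 genes by edgeR's interaction test. The mutant change exceeded the wild-type one on the log2 scale by 1.21 in hbbe3, 4.66 in hspb9, 4.37 in tcap, 2.57 in flnca, 4.77 in CABZ01012957.1, 3.04 in hspb11 and 1.16 in rasd1. The difference was -1.52 in sb:cb37, -2.59 in igfn1.3 and -6.62 in si:ch211-255g12.6.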

How the results depend on the processing

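Calls between 24 and 48 hpf numbered 4523, and 3970 to 4818 under the alternatives that changed the scaling, filter, tool or libraries; leaving out 1 embryo at a time gave 4016 to 4554, with 2057 to 2329 higher and 1928 to 2268 lower. With 1 embryo left out at a time, the 2-fold test passed 552 to 639 genes (446 to 511 higher, 106 to 135 lower). Under the other edgeR alternatives it passed 555 to 667 (440 to 515 higher, 111 to 155 lower). Of 379 named values called, 321 were called under every alternative that gave them an adjusted p, and none changed sign. A gene that an alternative filtered out was not counted as lost. Without the 24 hpf embryos 1 and 4, an alternative chosen after seeing the data, 36 calls were lost; without embryo 1, 30, and without embryo 2, 22. Departures at 36 hpf numbered 183 higher and 259 lower with library totals only, and 206 lower with DESeq2. They ranged from 540 to 613 (419 to 494 higher, 119 to 121 lower) without 24 hpf embryo 4 or 48 hpf embryo 9. Interaction calls were 23, 19 of them higher, with library totals, 21 (15 higher, 6 lower) without the libraries under 1/3 of the median total, 6 (3 higher) with limma voom and 43 (23 higher, 20 lower) with DESeq2; 11 were higher without embryos 1 and 4. Without 24 hpf embryo 4 or 48 hpf embryo 9, the only single embryos left out for this test, interaction calls numbered 10 to 16. Of these, 7 to 12 were higher and 3 to 4 lower. The causes were not tested. Replicate numbers did not pair embryos: deviations of same-numbered embryos correlated at 0.0044 to 0.0353, and 5 of 6 numbers matched another number better. With the replicate block 4214 genes were called and 7 interaction calls were lower. Shallow libraries limit genes of low count, and plate column cannot be told apart from age.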
